A study of Mus musculus with 24 samples.

Results

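The genotype by knockdown interaction in epididymal fat cultures is the difference between 2 effects of the same siRNA. It subtracts the log2 change that siCEBPb made in control cultures (Cont) from the log2 change it made in Senp2-knockout cultures (aKO). The 12 epididymal (eWAT) libraries of the series, of 24 in all, carry this contrast, and they were taken by their labels. The groups were aKO siCEBPb, aKO siNS, Cont siCEBPb and Cont siNS, with 3 libraries each. A positive interaction means that the siCEBPb effect lay higher in aKO than in Cont cultures, and a negative one that it lay lower. The sign does not say which arm moved, so for most named genes the knockdown effects or the levels in each group are given beside it.

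The aKO mice were Senp2flox/flox; Adipoq Cre and the Cont mice Senp2flox/flox, so floxed Senp2 was common to all groups. Adipoq drives Cre in cells that turn on the adipocyte programme, and cells that had not differentiated would keep the floxed gene. Stromal vascular cells were induced for 2 days with dexamethasone, 0.5 mmol/l isobutylmethylxanthine and 0.1 mg/ml insulin, then kept for 5 days in 1 µg/ml insulin with 10% serum. The labels explain neither siNS nor when siRNA was given, and give no age. They do not say whether replicates were separate animals or cultures, and the spread that the p-values rest on may then be technical. Gene counts ranged from 13025727 to 15388744 per eWAT library, and 14419 genes were tested.

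C/EBPβ is a transcription factor that acts early in adipocyte differentiation, before PPARγ and C/EBPα, and it also drives inflammatory and acute phase genes. SUMO is a small protein that is attached to lysines of other proteins and often lowers the activity of transcription factors, and SENP2 is a protease that removes it. The series asks how Senp2 and Cebpb act together on browning, the gain of brown fat features by white adipocytes. The interaction is the term that asks whether the Cebpb knockdown effect depended on the genotype.

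Cebpb itself stood at 20.3, 32.6 and 29.7 CPM in aKO siCEBPb, 142, 158 and 157 in aKO siNS, 57.5, 42.7 and 51.6 in Cont siCEBPb and 159, 168 and 184 in Cont siNS. CPM are counts relative to library size, scaled by the trimmed mean of M values (TMM). The siCEBPb libraries lay below the siNS libraries in both genotypes without overlap. The level left was 18.1% of the siNS mean in aKO and 29.7% in Cont cultures, log2 changes of -2.47 in aKO and -1.75 in Cont cultures. Its interaction was -0.72 ± 0.21 (SE; adjusted p = 0.0541) by edgeR's quasi-likelihood test with Benjamini-Hochberg adjustment, just outside the threshold of 0.05. The 3 siCEBPb libraries of aKO all lay below those of Cont, so Cebpb was lower at the point where the 2 knockdown effects were read, and the part of this in the interactions below was not tested. The Cebpb interaction passed the threshold under 4 other settings and without aKO siCEBPb replicate 1, aKO siCEBPb replicate 2 or Cont siCEBPb replicate 2, with adjusted p of 0.0166, 0.0273 and 0.0253. Senp2 stood at 56.4, 51 and 53.1 CPM in aKO siCEBPb, 53.1, 43.8 and 46.6 in aKO siNS, 51, 50.3 and 49.1 in Cont siCEBPb and 58.3, 54.3 and 53.6 in Cont siNS. The interaction was 0.31 ± 0.10 (SE; adjusted p = 0.0565), and it passed by voom and without aKO siCEBPb replicate 2 or aKO siNS replicate 1, with adjusted p of 0.0124, 0.0262 and 0.0151. These counts do not check the genotype, since reads outside the floxed part would still count.

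The interaction was called for 1447 of the 14419 genes, 10.0% of those tested, 755 positive (5.24%) and 692 negative (4.80%). The knockdown alone was called for 5782 genes in aKO cultures (40.1%), 2736 rising (19.0%) and 3046 falling (21.1%). In Cont cultures it was called for 4359 (30.2%), 1790 rising (12.4%) and 2569 falling (17.8%). Among the 1447 genes, the knockdown effect passed the threshold in aKO cultures but not in Cont cultures for 605 (41.8%), and in Cont but not in aKO cultures for 263 (18.2%). It passed in both genotypes in the same direction and was larger in aKO for 413 genes (28.5%), and larger in Cont for 60 (4.15%). For 85 genes (5.87%) it passed in both genotypes in opposite directions, and for 21 (1.45%) in neither. The absolute knockdown effect was larger in aKO for 74.1% of the called genes, against 60.1% of all genes tested. Its median was 0.54 in aKO and 0.30 in Cont cultures over the called genes, and 0.22 and 0.18 over all genes tested.

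The genotypes, aKO against Cont, differed for 1963 genes with siCEBPb (13.6%), 799 higher (5.54%) and 1164 lower (8.07%). With siNS they differed for 3527 (24.5%), 1550 higher (10.7%) and 1977 lower (13.7%). Of the interaction calls, 810 (56.0%) differed between aKO and Cont with siNS but not with siCEBPb, and 320 (22.1%) with siCEBPb but not with siNS. Another 108 genes (7.46%) differed in opposite directions with the 2 siRNAs, 128 (8.85%) in the same direction and 81 (5.6%) with neither. Interactions over 2-fold were mostly negative, with 76 positive and 211 negative among 287 genes, whereas 755 positive and 692 negative genes were called in all. The number of calls was 940 without aKO siCEBPb replicate 1, 906 without aKO siNS replicate 3, 796 without Cont siCEBPb replicate 1 and 856 without Cont siCEBPb replicate 3. In bulk RNA, fewer cells of a type and less RNA per cell cannot be told apart.

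**Figure D1:**
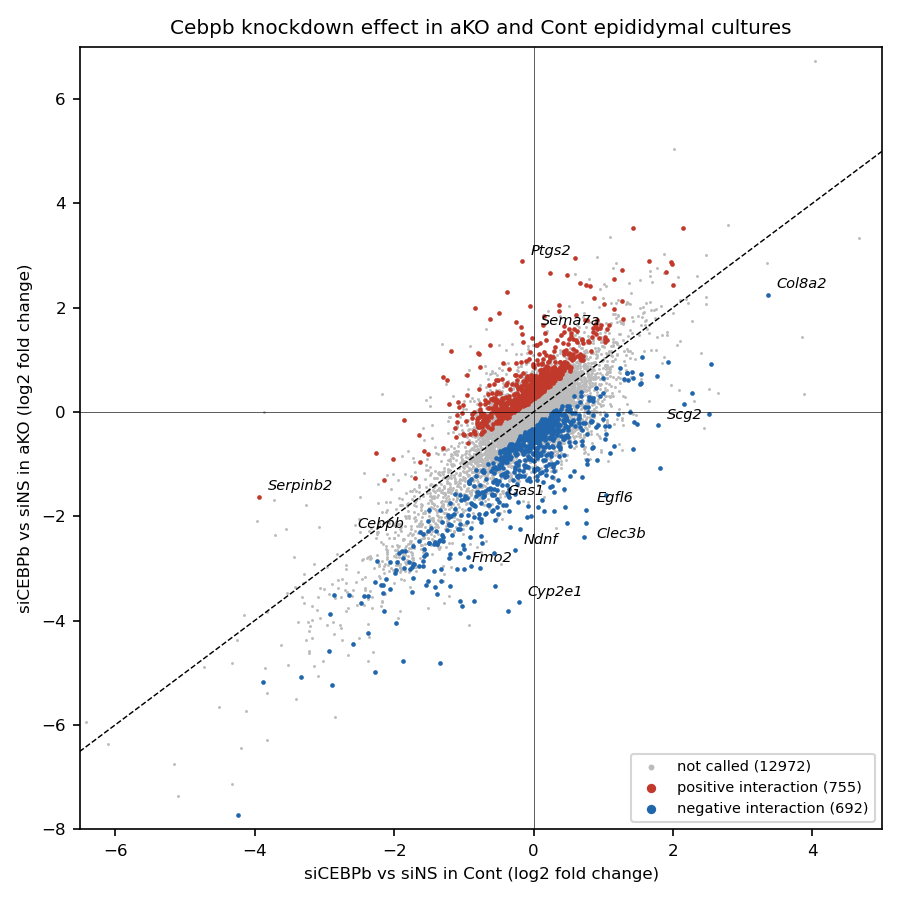
Each point is a gene tested in the 12 epididymal libraries, with its log2 fold change of siCEBPb against siNS in aKO cultures (vertical) and in Cont cultures (horizontal); the dashed line marks equal effects. The 755 positive interactions lie above the line and the 692 negative ones below it, and many called points run along the vertical axis, where the Cont effect is near 0.

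Several of the largest positive interactions were of genes that siCEBPb raised in aKO cultures and that did not pass the test of the knockdown in Cont cultures. Ptgs2 encodes cyclooxygenase 2, the inducible enzyme of prostaglandin synthesis. It stood at 69.8, 27.9 and 38.1 CPM in aKO siCEBPb, 6.26, 6.59 and 5.5 in aKO siNS, 18.4, 22.1 and 18.6 in Cont siCEBPb and 20.7, 24.2 and 21.2 in Cont siNS. The aKO siNS libraries were the lowest and the aKO siCEBPb libraries the highest, with no overlap with either Cont group. The interaction was 3.06 ± 0.49 (SE; adjusted p = 0.00621), from knockdown effects of 2.89 in aKO and -0.16 in Cont cultures. Inhba, the subunit of activin A, stood at 319, 218 and 241 CPM in aKO siCEBPb, 74.6, 74.8 and 68.9 in aKO siNS, 179, 198 and 188 in Cont siCEBPb and 169, 172 and 167 in Cont siNS. Its pattern was the same, with aKO siCEBPb above and aKO siNS below all Cont libraries, and its interaction was 1.68 ± 0.15 (SE; adjusted p = 1.24e-05). Sema7a, a membrane-anchored semaphorin, stood at 42.8, 42.8 and 36.6 CPM in aKO siCEBPb, 9.97, 9.65 and 10.4 in aKO siNS, 30.3, 29.9 and 29.8 in Cont siCEBPb and 32.2, 36.3 and 24.2 in Cont siNS. Here siCEBPb libraries of aKO again lay above all others and aKO siNS below, and the interaction was 2.07 ± 0.16 (SE; adjusted p = 1.45e-07).

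Ankrd1, a muscle ankyrin repeat protein and known target of YAP, stood at 26.8, 15.4 and 16.8 CPM in aKO siCEBPb, 3.48, 2.58 and 3.54 in aKO siNS, 11.1, 12.1 and 10.2 in Cont siCEBPb and 8.79, 7.77 and 7.46 in Cont siNS. Knockdown effects were 2.63 in aKO and 0.48 in Cont cultures, and the interaction was 2.15 ± 0.29 (SE; adjusted p = 0.000303). Kcnh2, a potassium channel subunit, stood at 6.61, 5.4 and 4.53 CPM in aKO siCEBPb, 1.39, 1.49 and 1.11 in aKO siNS, 3.85, 3.87 and 4.27 in Cont siCEBPb and 2.51, 3.02 and 3.77 in Cont siNS. The interaction was 1.68 ± 0.29 (SE; adjusted p = 0.000757). In both genes the 3 aKO siNS libraries were the lowest of the 12.

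Another set of genes moved in opposite directions in the 2 genotypes. Ereg, the EGF receptor ligand epiregulin, stood at 3.9, 2.22 and 2.16 CPM in aKO siCEBPb, 1.24, 1.15 and 1.31 in aKO siNS, 1.79, 1.93 and 2.34 in Cont siCEBPb and 3.84, 6.19 and 3.69 in Cont siNS. It rose in aKO and fell in Cont cultures, by log2 changes of 1.17 in aKO and -1.18 in Cont cultures, and its interaction was 2.34 ± 0.38 (SE; adjusted p = 0.000387). Il11, a cytokine of the interleukin 6 family, stood at 3.9, 2.59 and 3.41 CPM in aKO siCEBPb, 1.85, 1.97 and 1.64 in aKO siNS, 2.65, 2.8 and 2.2 in Cont siCEBPb and 3.35, 4.81 and 4.93 in Cont siNS, with knockdown effects of 0.86 in aKO and -0.77 in Cont cultures and an interaction of 1.63 ± 0.30 (SE; adjusted p = 0.00115). Htr1b, a serotonin receptor, had knockdown effects of 1.11 in aKO and -0.78 in Cont cultures and an interaction of 1.89 ± 0.39 (SE; adjusted p = 0.00339). Serpinb2, an inhibitor of plasminogen activators, differed from these, since it fell in both genotypes. Its libraries stood at 1.59, 0.518 and 0.835 CPM in aKO siCEBPb, 2.39, 3.53 and 3.28 in aKO siNS, 0.863, 1.13 and 0.734 in Cont siCEBPb and 15.6, 15.1 and 11.4 in Cont siNS. Cont siNS lay far above the other groups, the siCEBPb libraries of both genotypes overlapped, and the positive interaction, 2.31 ± 0.43 (SE; adjusted p = 0.00186), was a smaller fall in aKO than in Cont cultures.

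**Figure D2:**
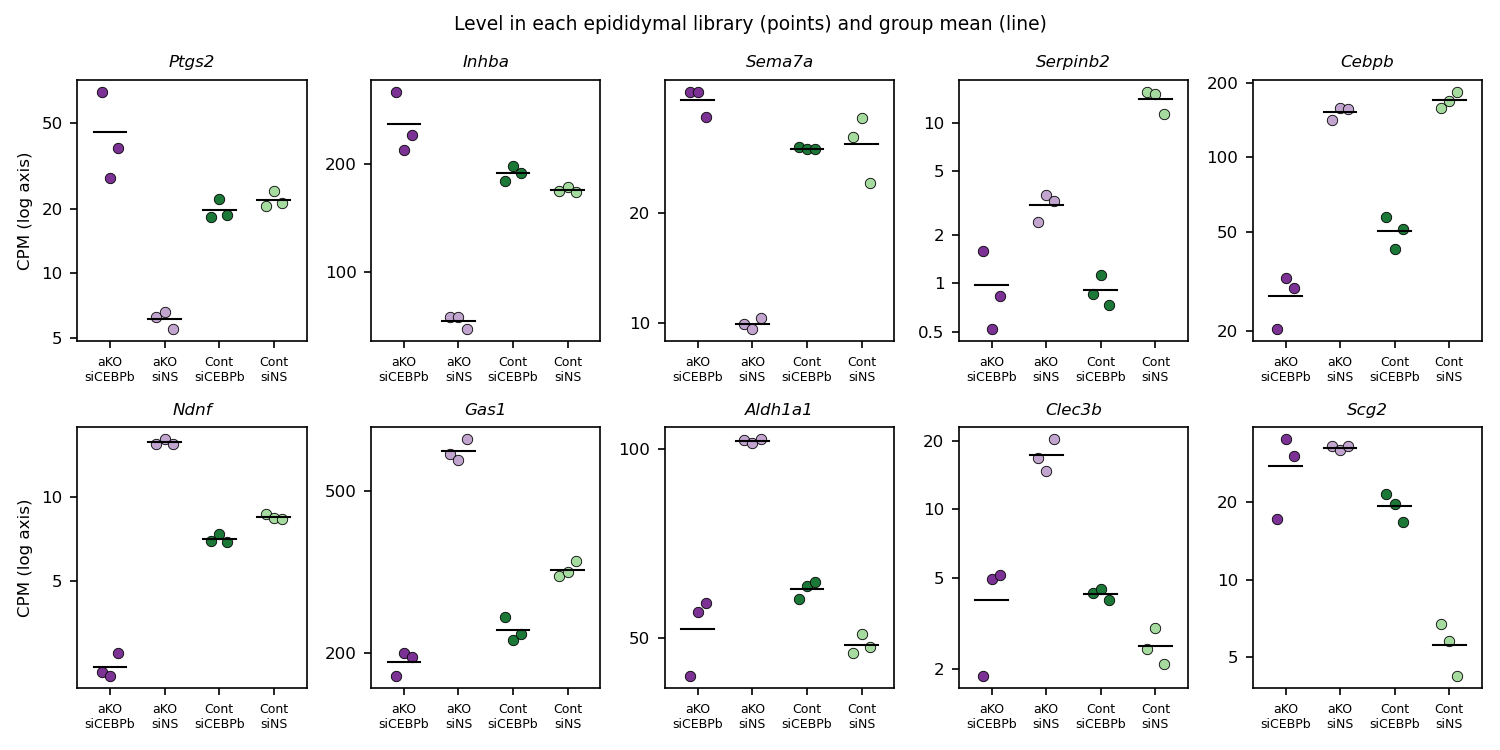
Points give the CPM of each of the 3 libraries per group and lines the group mean, on a log axis, for 10 genes. Ptgs2, Inhba and Sema7a are highest in aKO siCEBPb and lowest in aKO siNS; Ndnf, Gas1, Aldh1a1 and Clec3b are highest in aKO siNS; Scg2 is lowest in Cont siNS; and Cebpb is low in both siCEBPb groups.

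The negative interactions with the smallest p were genes that stood higher in aKO than in Cont cultures with siNS and that siCEBPb lowered in aKO cultures. Ndnf, a secreted neurotrophic factor, stood at 2.38, 2.29 and 2.78 CPM in aKO siCEBPb, 15.4, 16 and 15.4 in aKO siNS, 6.97, 7.34 and 6.87 in Cont siCEBPb and 8.65, 8.38 and 8.33 in Cont siNS. Its aKO siNS libraries were the highest and its aKO siCEBPb libraries the lowest, without overlap with the Cont groups. Knockdown effects were -2.65 in aKO and -0.26 in Cont cultures, and the interaction was -2.39 ± 0.17 (SE; adjusted p = 3.02e-08). Gas1, a membrane protein that binds Hedgehog ligands, stood at 175, 199 and 195 CPM in aKO siCEBPb, 614, 593 and 668 in aKO siNS, 245, 215 and 222 in Cont siCEBPb and 309, 315 and 335 in Cont siNS. The interaction was -1.23 ± 0.09 (SE; adjusted p = 4.52e-08), and the fall was present in both genotypes, with log2 changes of -1.72 in aKO and -0.49 in Cont cultures. Vegfd, a growth factor for lymphatic vessels, stood at 225, 226 and 253 CPM in aKO siCEBPb, 529, 494 and 527 in aKO siNS, 261, 257 and 275 in Cont siCEBPb and 293, 282 and 307 in Cont siNS. The interaction was -0.98 ± 0.09 (SE; adjusted p = 2.04e-07).

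Several enzymes of oxidative and retinoid metabolism had negative interactions. Aldh1a1 makes retinoic acid from retinaldehyde. It stood at 43.4, 54.9 and 56.7 CPM in aKO siCEBPb, 103, 102 and 104 in aKO siNS, 57.5, 60.5 and 61.3 in Cont siCEBPb and 47.3, 50.7 and 48.2 in Cont siNS, so the siCEBPb libraries of aKO overlapped those of Cont while aKO siNS lay above all of them. Knockdown effects of -1.0 in aKO and 0.29 in Cont cultures gave an interaction of -1.29 ± 0.11 (SE; adjusted p = 1.5e-07). Fmo2, a flavin monooxygenase, stood at 2.25, 3.48 and 3.06 CPM in aKO siCEBPb, 22.9, 22.6 and 24.8 in aKO siNS, 5.9, 9.87 and 7.41 in Cont siCEBPb and 14.6, 15.8 and 16.2 in Cont siNS. It fell in both genotypes, by log2 changes of -3.01 in aKO and -1.0 in Cont cultures. The interaction was -2.0 ± 0.22 (SE; adjusted p = 5.1e-06). Cyp2e1, a cytochrome P450, stood at 0.0661, 0.444 and 0.975 CPM in aKO siCEBPb, 4.79, 5.98 and 7.73 in aKO siNS, 2.52, 4.0 and 2.6 in Cont siCEBPb and 2.23, 4.88 and 3.4 in Cont siNS, and Aox3, an aldehyde oxidase, at 0.132, 0.666 and 0.557 CPM in aKO siCEBPb, 5.87, 6.52 and 5.44 in aKO siNS, 0.995, 1.07 and 1.4 in Cont siCEBPb and 2.02, 3.02 and 2.03 in Cont siNS. The siCEBPb libraries of aKO were the lowest for both, and the interactions were -3.44 ± 0.62 (SE; adjusted p = 0.00436) for Cyp2e1 and -2.69 ± 0.45 (SE; adjusted p = 0.000484) for Aox3. In aKO siCEBPb replicate 1 both genes lay below the 0.195 to 0.23 CPM that 3 counts make, so the size of these interactions is uncertain.

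Genes of secreted matrix and vesicle proteins also had negative interactions. Clec3b, which encodes tetranectin, stood at 1.85, 4.96 and 5.15 CPM in aKO siCEBPb, 16.8, 14.7 and 20.3 in aKO siNS, 4.31, 4.47 and 4.0 in Cont siCEBPb and 2.44, 3.02 and 2.1 in Cont siNS. It fell in aKO cultures and did not pass the test in Cont cultures, with log2 changes of -2.13 in aKO and 0.75 in Cont cultures, and the interaction was -2.88 ± 0.39 (SE; adjusted p = 0.000465). Egfl6, a secreted protein with EGF repeats, stood at 6.68, 10.7 and 9.54 CPM in aKO siCEBPb, 33.4, 30.7 and 35.1 in aKO siNS, 15.3, 11.3 and 14.7 in Cont siCEBPb and 9.91, 7.15 and 7.46 in Cont siNS. It fell in aKO and rose in Cont cultures, with log2 changes of -1.89 in aKO and 0.75 in Cont cultures, and the interaction was -2.64 ± 0.22 (SE; adjusted p = 1.13e-06). Scg2, a granin of secretory vesicles, stood at 17.3, 35.1 and 30.3 CPM in aKO siCEBPb, 32.9, 31.9 and 33 in aKO siNS, 21.6, 19.6 and 16.8 in Cont siCEBPb and 6.7, 5.77 and 4.2 in Cont siNS. It rose in Cont cultures, where siNS libraries were the lowest of all, and did not pass the test in aKO cultures, where the 2 groups overlapped. Its interaction was -2.04 ± 0.36 (SE; adjusted p = 0.00753).

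The promoters of these genes were searched for C/EBP motifs. C/EBP proteins bind a palindrome of which TTGCNNAA is a loose form. RefSeq promoter windows (GRCm38.p6, 250 bases before to 50 after a start) were found for 21 of the 27 genes with the largest or the most certain interactions, and 5 of these genes held TTGCNNAA on either strand. Some genes have several windows, and of the 29 windows of the 21 genes 7 (24.1%) held it, against 3547 of all 32851 windows in the table (10.8%). Fmo2 and Serpinb2 each have overlapping windows that both count among the 7, so the windows are not independent. The share of all genes with a match was not counted, and the genes were picked by their interactions. With so few genes, no excess of the motif can be read from these shares. The matches were in Ptgs2, Inhba and Serpinb2 among positive and in Aldh1a1 and Fmo2 among negative interactions. The windows of 4 of them are printed because these genes carry both directions of the result, with the match in capitals. Ptgs2 lies at chr1:150099781-150100080 (plus strand), Inhba at chr13:16011601-16011900 (plus strand), Aldh1a1 at chr19:20492333-20492632 (plus strand) and Fmo2 at chr1:162898444-162898743 (minus strand). The match starts 69 bases before the start site in Ptgs2, 67 in Inhba, 13 in Aldh1a1 and 69 in Fmo2. Aldh1a1 has another window, chr19:20601718-20602017 (plus strand), with 0 matches, and Fmo2 another, chr1:162898709-162899008 (minus strand), with 1 match. Which start site these cultures used was not measured. A match describes letters only; binding was not measured.
Ptgs2: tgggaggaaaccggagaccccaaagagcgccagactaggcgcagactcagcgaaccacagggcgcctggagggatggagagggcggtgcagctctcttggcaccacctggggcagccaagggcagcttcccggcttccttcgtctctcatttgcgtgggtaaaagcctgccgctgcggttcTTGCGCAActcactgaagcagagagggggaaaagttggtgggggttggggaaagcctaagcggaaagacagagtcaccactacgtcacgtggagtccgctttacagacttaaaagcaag
Inhba: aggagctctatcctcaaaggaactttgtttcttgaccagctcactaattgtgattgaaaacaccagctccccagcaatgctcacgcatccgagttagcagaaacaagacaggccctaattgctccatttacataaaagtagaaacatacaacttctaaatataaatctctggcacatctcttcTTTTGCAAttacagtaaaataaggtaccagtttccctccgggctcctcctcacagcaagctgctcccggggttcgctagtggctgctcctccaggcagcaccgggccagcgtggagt
Aldh1a1: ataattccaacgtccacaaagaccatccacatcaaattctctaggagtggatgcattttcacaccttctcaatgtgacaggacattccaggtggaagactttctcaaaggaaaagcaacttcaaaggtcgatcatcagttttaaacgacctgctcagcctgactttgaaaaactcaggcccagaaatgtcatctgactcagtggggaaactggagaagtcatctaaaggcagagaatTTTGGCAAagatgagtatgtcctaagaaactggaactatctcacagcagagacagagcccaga
Fmo2: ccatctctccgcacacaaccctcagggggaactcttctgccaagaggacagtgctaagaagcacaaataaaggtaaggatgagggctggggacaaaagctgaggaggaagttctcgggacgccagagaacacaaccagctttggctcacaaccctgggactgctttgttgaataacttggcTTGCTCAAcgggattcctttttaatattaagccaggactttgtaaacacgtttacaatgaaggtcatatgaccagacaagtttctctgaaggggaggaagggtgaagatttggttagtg

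Gene groups are given by how many tested members were called, beside 5.24% positive and 4.80% negative of all genes. Their median interaction stands beside a median of -0.00111 over all genes. Counts of members that rose or fell with siCEBPb are read beside all genes, of which 19.0% rose and 21.1% fell in aKO cultures. In Cont cultures 12.4% of all genes rose and 17.8% fell.

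Immediate early genes, which respond within minutes to growth signals, and feedback regulators of the MAPK pathway leaned positive. Of 33 tested, 17 were called positive and 0 negative, with a median interaction of 0.33. The 17 were Egr1, Egr2, Egr3, Fosl1, Ier5, Nr4a1, Nr4a3, Myc, Maff, Klf6, Phlda1, Dusp4, Dusp6, Spry4, Spred2, Etv4 and Etv5. With siCEBPb, 15 members rose and 3 fell in aKO cultures, against 5 rising and 14 falling in Cont cultures. Dusp4, a phosphatase that switches off MAPK, stood at 56.2, 52.1 and 48.5 CPM in aKO siCEBPb, 49.2, 48.5 and 51.6 in aKO siNS, 40.9, 40.0 and 40.1 in Cont siCEBPb and 59.1, 63.6 and 66.5 in Cont siNS. It fell in Cont cultures and did not pass the test in aKO cultures, and the interaction was 0.71 ± 0.10 (SE; adjusted p = 6.69e-05). Egr3, a zinc finger transcription factor, stood at 7.6, 8.66 and 8.63 CPM in aKO siCEBPb, 5.1, 5.23 and 5.57 in aKO siNS, 5.51, 6.94 and 6.54 in Cont siCEBPb and 9.21, 8.38 and 8.33 in Cont siNS, with knockdown effects of 0.64 in aKO and -0.45 in Cont cultures and an interaction of 1.09 ± 0.18 (SE; adjusted p = 0.000484). Etv5, an ETS factor downstream of MAPK, had an interaction of 0.68 ± 0.12 (SE; adjusted p = 0.000762). Without Cont siCEBPb replicate 3 the count of positive members was 11, and 1 was negative by voom and without aKO siCEBPb replicate 3 or Cont siNS replicate 3.

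Cell cycle genes leaned the same way through the Cont arm. Of 36 tested, 15 were called positive and 0 negative, with a median of 0.34. With siCEBPb, 32 members fell and 0 rose in Cont cultures, whereas 9 fell and 2 rose in aKO cultures. The 9 of 36 are near the 21.1% of all genes that fell in aKO cultures. The called members held mitotic genes (Top2a, Cdk1, Aurka, Cenpf, Kif11, Tpx2, Prc1 and Cdc20) and genes of the G1/S transition and DNA replication (Ccne1, Ccne2, Cdc6, Mcm3, Mcm5, Mcm6 and Rrm2). Cdc6, a licensing factor of replication origins, stood at 6.28, 6.51 and 4.66 CPM in aKO siCEBPb, 4.33, 6.25 and 5.18 in aKO siNS, 4.58, 6.07 and 4.81 in Cont siCEBPb and 10.7, 10.6 and 9.92 in Cont siNS. Only Cont siNS stood apart, above the other 3 groups, and the interaction was 1.16 ± 0.22 (SE; adjusted p = 0.00203). Rrm2, a subunit of ribonucleotide reductase, stood at 83.4, 70.2 and 68.9 CPM in aKO siCEBPb, 68.9, 82.3 and 82.8 in aKO siNS, 53.6, 56.4 and 50.5 in Cont siCEBPb and 80.5, 83.6 and 88.4 in Cont siNS, with Cont siCEBPb as the low group and an interaction of 0.58 ± 0.11 (SE; adjusted p = 0.00241). Mki67, the proliferation marker, fell in both genotypes by log2 changes of -0.55 in aKO and -0.82 in Cont cultures, and its interaction was 0.27 ± 0.10 (SE; adjusted p = 0.107), which passed without aKO siCEBPb replicate 2 (adjusted p = 0.0254). The count of positive members was 9 without Cont siCEBPb replicate 1.

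TGF-beta and BMP genes were called in both directions. Of 34 tested, 8 were positive (among them Inhba, Fstl3, Smad3, Ltbp2, Grem1 and Bmpr1b) and 5 negative (Id1, Id2, Id3, Id4 and Chrdl1), with a median of 0.17. Id1 to Id4 are direct BMP targets, and Grem1 is a secreted BMP antagonist. Fstl3, which binds activin, stood at 37.3, 34.4 and 36.6 CPM in aKO siCEBPb, 30.2, 32.7 and 32.8 in aKO siNS, 40.5, 38.4 and 40.0 in Cont siCEBPb and 54.6, 57 and 61.8 in Cont siNS, with a fall in Cont cultures and an interaction of 0.72 ± 0.10 (SE; adjusted p = 7.92e-05). Id2 stood at 19.4, 19.1 and 20.3 CPM in aKO siCEBPb, 37.5, 41.9 and 47.9 in aKO siNS, 26.1, 25.8 and 25.6 in Cont siCEBPb and 32.7, 29.5 and 27.3 in Cont siNS, and it fell in aKO cultures. The interaction was -0.91 ± 0.13 (SE; adjusted p = 8.94e-05).

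Contractile genes leaned positive. Of 15 smooth muscle and pericyte markers, 9 rose in aKO and 8 in Cont cultures with siCEBPb, and 2 fell in each. In the interaction 5 were positive (Acta2, Tagln, Myh11, Actg2 and Synpo2) and 1 negative (Abcc9), with a median of 0.50. Actg2, smooth muscle gamma actin, stood at 167, 107 and 105 CPM in aKO siCEBPb, 16.2, 17.5 and 17.2 in aKO siNS, 79.4, 77.7 and 78 in Cont siCEBPb and 24.8, 24.6 and 25.1 in Cont siNS. Its knockdown effects were 2.89 in aKO and 1.66 in Cont cultures, and the interaction was 1.24 ± 0.24 (SE; adjusted p = 0.0109). Synpo2, an actin-binding protein, stood at 109, 92.8 and 92.3 CPM in aKO siCEBPb, 28.9, 30.0 and 26.5 in aKO siNS, 66.1, 69.6 and 67.1 in Cont siCEBPb and 27.6, 27 and 28.8 in Cont siNS. The interaction was 0.50 ± 0.11 (SE; adjusted p = 0.00422). The negative count was 0 without aKO siNS replicate 1, Cont siCEBPb replicate 1 or Cont siNS replicate 3. The summed level of the list was 3648 to 4967 CPM in aKO siCEBPb, 1434 to 1482 in aKO siNS, 3285 to 3348 in Cont siCEBPb and 1641 to 1898 in Cont siNS cultures.

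Fibroblast and progenitor markers leaned negative in their calls and median. Of 25 tested, 10 were negative (Pdgfra, Cd34, Ly6a, Dlk1, Dcn, Lum, Cd55, Clec11a, Fmo2 and Sema3c) and 4 positive (Acta2, Tagln, Anxa3 and Creb5), with a median of -0.32. Acta2 and Tagln also stand in the contractile list. The positive count was 2 with all 24 libraries in 1 fit and without Cont siCEBPb replicate 1. With siCEBPb, 10 members rose and 9 fell in aKO cultures, against 8 rising and 7 falling in Cont cultures. The summed level of the list rose with siCEBPb in both genotypes. It was 29755 to 34192 CPM in aKO siCEBPb and 24425 to 24987 in aKO siNS cultures. In Cont cultures it was 27110 to 28007 CPM with siCEBPb and 22736.5 to 24505 with siNS. Ly6a, the progenitor surface marker Sca-1, stood at 324, 282 and 339 CPM in aKO siCEBPb, 581, 599 and 638 in aKO siNS, 302, 295 and 310 in Cont siCEBPb and 360, 330 and 357 in Cont siNS. The aKO siNS libraries were the highest, and the interaction was -0.74 ± 0.09 (SE; adjusted p = 2.6e-05). Clec11a, a secreted growth factor, stood at 3.44, 5.92 and 4.73 CPM in aKO siCEBPb, 7.72, 8.56 and 10.3 in aKO siNS, 8.82, 8.54 and 8.81 in Cont siCEBPb and 7.67, 7.7 and 8.04 in Cont siNS. The interaction was -1.09 ± 0.21 (SE; adjusted p = 0.00239).

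Signals that act on progenitors followed. In the Wnt list 7 of 26 members were negative (Wnt4, Fzd4, Axin2, Nkd1, Sfrp1, Sfrp2 and Sfrp4) and 2 positive (Wnt11 and Fzd5), with a median of -0.19. The positive count was 0 without aKO siCEBPb replicate 1, aKO siNS replicate 2 or 3, Cont siCEBPb replicate 2 or 3, or Cont siNS replicate 3. They held a ligand, a receptor, feedback targets and secreted antagonists. Sfrp1, a secreted Wnt antagonist, stood at 1305, 1110 and 1381 CPM in aKO siCEBPb, 2415, 2387 and 2472 in aKO siNS, 1688, 1664 and 1654 in Cont siCEBPb and 2107, 2224 and 2273 in Cont siNS. The interaction was -0.54 ± 0.09 (SE; adjusted p = 0.000718). Axin2, a feedback target of Wnt signalling, stood at 7.53, 10.3 and 9.47 CPM in aKO siCEBPb, 16.2, 13.9 and 16.9 in aKO siNS, 16.1, 11.9 and 15 in Cont siCEBPb and 14.7, 14.4 and 14.3 in Cont siNS, where aKO siCEBPb was the low group, and its interaction was -0.78 ± 0.18 (SE; adjusted p = 0.00673). In the IGF system 5 of 12 members were negative (Igf1, Igfbp3, Igfbp4, Igfbp5 and Igfbp6) and 0 positive, with 1 positive without aKO siNS replicate 1. Igfbp4, a binding protein that restrains IGF, stood at 157, 251 and 237 CPM in aKO siCEBPb, 993, 970 and 1072 in aKO siNS, 493, 386 and 488 in Cont siCEBPb and 951, 1023 and 924 in Cont siNS; it fell in both genotypes. The interaction was -1.15 ± 0.23 (SE; adjusted p = 0.0135). Igfbp5, a relative of it, stood at 256, 387 and 321 CPM in aKO siCEBPb, 226, 182 and 190 in aKO siNS, 395, 321 and 359 in Cont siCEBPb and 117, 94.6 and 104 in Cont siNS. It rose in both genotypes, by log2 changes of 0.69 in aKO and 1.77 in Cont cultures, so its negative interaction, -1.08 ± 0.22 (SE; adjusted p = 0.0137), was a smaller rise in aKO cultures.

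Matrix genes moved both ways. Of 26 collagen genes, 4 were positive and 2 negative. Only 1 was negative without any 1 library of aKO siNS, Cont siCEBPb or Cont siNS, and 2 were positive with all 24 libraries in 1 fit. Col8a1 stood at 462, 439 and 441 CPM in aKO siCEBPb, 113, 119 and 111 in aKO siNS, 300, 326 and 307 in Cont siCEBPb and 144, 130 and 144 in Cont siNS and rose in both genotypes. The interaction was 0.81 ± 0.08 (SE; adjusted p = 2.64e-06). Col8a2, whose product is also a type VIII collagen chain, stood at 96.9, 132 and 101 CPM in aKO siCEBPb, 25.5, 20.7 and 23.1 in aKO siNS, 84.2, 86 and 81.4 in Cont siCEBPb and 8.37, 8.52 and 7.46 in Cont siNS. It too rose in both genotypes, by log2 changes of 2.25 in aKO and 3.37 in Cont cultures, yet its interaction was -1.12 ± 0.16 (SE; adjusted p = 0.000306), so the 2 type VIII genes had opposite interactions. Among 29 matrix proteases and inhibitors, 4 were positive and 7 negative. With all 24 libraries in 1 fit the counts were 2 and 3. The positive count was 2 without Cont siCEBPb replicate 1 or 2, and the negative count was 4 without aKO siNS replicate 2, aKO siNS replicate 3, Cont siCEBPb replicate 1, Cont siNS replicate 1 or Cont siNS replicate 2. Adamts6, a secreted protease, stood at 56.6, 44.1 and 46.2 CPM in aKO siCEBPb, 17.1, 16.7 and 13.2 in aKO siNS, 53.5, 60.9 and 56.6 in Cont siCEBPb and 43, 37.5 and 45.3 in Cont siNS. The interaction was 1.2 ± 0.15 (SE; adjusted p = 5.08e-05).

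**Figure D3:**
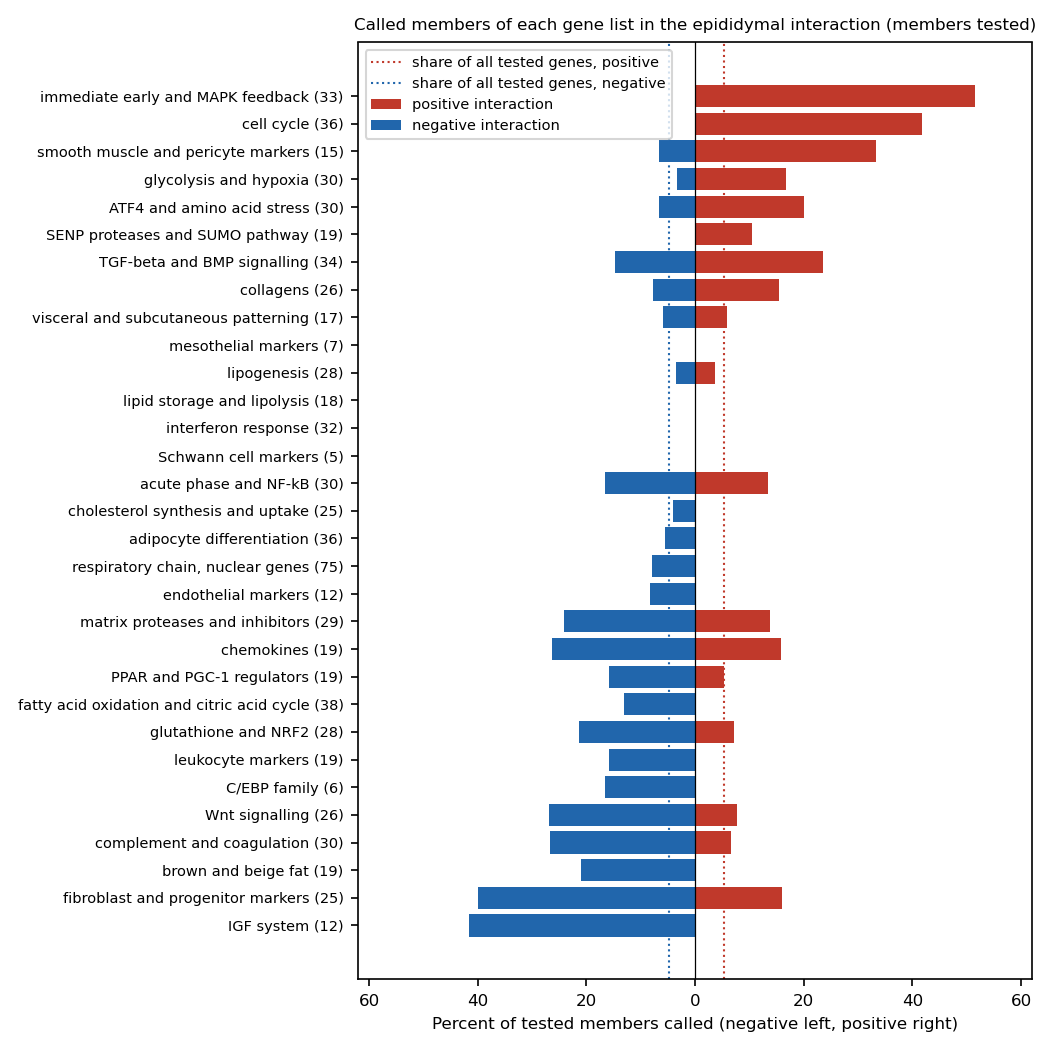
Bars give the percent of tested members of each gene list called positive (right, red) or negative (left, blue) in the epididymal interaction, with the number tested in brackets; dotted lines mark 5.24% positive and 4.80% negative over all genes tested. Immediate early and cell cycle genes reach furthest to the right, with 17 of 33 and 15 of 36, and IGF and fibroblast genes furthest to the left, with 5 of 12 and 10 of 25.

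Adipocyte genes fell in larger numbers in aKO than in Cont cultures, and few passed the test of the interaction. Of 36 differentiation genes, 27 fell in aKO and 17 in Cont cultures, while 2 were called in the interaction (Klf15 and Dgat1), with a median of -0.49. The counts called were 4 without aKO siCEBPb replicate 3, 1 without aKO siNS replicate 3, Cont siCEBPb replicate 1 or Cont siNS replicate 1, 5 with no filter and 14 by voom, all negative. Klf15, a transcription factor of late differentiation, stood at 5.62, 8.36 and 9.68 CPM in aKO siCEBPb, 18.4, 17.3 and 19.3 in aKO siNS, 9.16, 9.27 and 8.88 in Cont siCEBPb and 9.14, 12.5 and 10.6 in Cont siNS. The interaction was -0.98 ± 0.21 (SE; adjusted p = 0.00423). Pparg, the master regulator of adipocytes, stood at 21.3, 24.9 and 27.1 CPM in aKO siCEBPb, 36.8, 38.9 and 42.3 in aKO siNS, 19.4, 19.2 and 25.6 in Cont siCEBPb and 25.3, 28.7 and 24.8 in Cont siNS, and its interaction was -0.40 ± 0.15 (SE; adjusted p = 0.102). Cebpa stood at 40.6, 70.3 and 55.4 CPM in aKO siCEBPb, 160, 163 and 187 in aKO siNS, 66.6, 52.8 and 67.8 in Cont siCEBPb and 94.2, 121 and 113 in Cont siNS. The interaction was -0.81 ± 0.26 (SE; adjusted p = 0.0934). Fabp4, the fatty acid binding protein that marks adipocytes, stood at 181, 303 and 359 CPM in aKO siCEBPb, 545, 664 and 729 in aKO siNS, 288, 254 and 348 in Cont siCEBPb and 409, 568 and 433 in Cont siNS, so every library carried this marker. The interaction was -0.54 ± 0.36 (SE; adjusted p = 0.411). The interactions of Adipoq, -0.82 ± 0.36 (SE; adjusted p = 0.196), and of Slc2a4, the insulin-responsive glucose transporter, -1.08 ± 0.40 (SE; adjusted p = 0.111), missed the threshold too. Slc2a4 passed with no filter, by DESeq2's Wald test, by voom and without aKO siCEBPb replicate 3, with adjusted p of 0.000285, 0.0236, 0.0358 and 0.012. Cebpa passed by DESeq2's Wald test (0.0392), by voom (0.00113) and without aKO siCEBPb replicate 2 (0.0228), Pparg with no filter (0.0198) and without aKO siCEBPb replicate 3 (0.0474), and Adipoq by voom (0.0125). The list summed to 4815 to 7553 CPM in aKO siCEBPb, 11609 to 14041 in aKO siNS, 5691 to 7087 in Cont siCEBPb and 8708 to 11789 in Cont siNS cultures.

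Of 31 symbols listed for brown and beige fat, 9 stayed under 10 counts in every library or had no entry under that symbol. Eva1 is an older name of Mpzl2, and both are among the 9. Ucp1, the uncoupling protein that defines thermogenic fat, had 0 counts in all 12 libraries, which allows up to 0.195 to 0.23 CPM per library at 3 counts. Ppargc1a, the coactivator of mitochondrial biogenesis, stood at 0.463, 0.814 and 0.766 CPM in aKO siCEBPb, 2.47, 1.97 and 2.69 in aKO siNS, 0.73, 0.40 and 0.601 in Cont siCEBPb and 0.698, 0.481 and 0.652 in Cont siNS. Only aKO siNS stood above the others, knockdown effects were -1.8 in aKO and -0.08 in Cont cultures, and the interaction was -1.73 ± 0.49 (SE; adjusted p = 0.0266). It lost the call without aKO siCEBPb replicate 1, aKO siNS replicate 3, Cont siCEBPb replicate 1, Cont siCEBPb replicate 3 or Cont siNS replicate 2, with adjusted p from 0.0604 to 0.107. Of 19 tested brown and beige genes, 4 were negative (Ppargc1a, Acot2, Slc27a1 and Pdk4) and 0 positive. The count was 2 by DESeq2's Wald test, 1 without each of aKO siCEBPb replicate 1, aKO siNS replicate 3, Cont siCEBPb replicate 1 and Cont siCEBPb replicate 3 and 2 without Cont siNS replicate 1. Acot2, a mitochondrial thioesterase, stood at 16.1, 20.8 and 21.5 CPM in aKO siCEBPb, 23.9, 19.5 and 23.7 in aKO siNS, 31.4, 34.4 and 28.8 in Cont siCEBPb and 18.4, 19.9 and 19.3 in Cont siNS, where Cont siCEBPb was the high group. The interaction was -0.92 ± 0.15 (SE; adjusted p = 0.00046).

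Calls among mitochondrial genes were all negative. Of 75 nuclear genes of the respiratory chain, 6 were negative and 0 positive, with a median of -0.27. At an unadjusted p under 0.05, 35 were negative and 0 positive, against 12.5% of all genes in each direction. The count of calls was 30 with no filter, 12 by voom, 11 by DESeq2's Wald test and 1 with all 24 libraries in 1 fit. It was 29 without aKO siNS replicate 1, 16 without aKO siCEBPb replicate 2, 11 without aKO siCEBPb replicate 3, 10 without Cont siNS replicate 2 and 2 without aKO siCEBPb replicate 1, aKO siNS replicate 3, Cont siCEBPb replicate 3 or Cont siNS replicate 3. With siCEBPb, 30 members fell and 0 rose in aKO cultures, whereas 1 fell and 7 rose in Cont cultures. The 7 of 75 are a smaller share than the 12.4% of all genes that rose in Cont cultures. In the inguinal cultures of the series, from a fit of all 24 libraries, the same list had 0 calls and a median interaction of -0.0494. A difference between the depots was not tested for the list. Glycolysis and hypoxia genes fell in both genotypes, 23 of 30 in aKO and 24 in Cont cultures, and 5 were positive and 1 negative in the interaction. The positive count was 8 by voom and 2 with all 24 libraries in 1 fit, and the negative count was 3 with no filter, 0 with all 24 libraries in 1 fit and 2 without aKO siCEBPb replicate 3 or Cont siCEBPb replicate 3. The positive count was 2 without Cont siCEBPb replicate 1 or Cont siCEBPb replicate 2 and 3 without Cont siCEBPb replicate 3 or Cont siNS replicate 3. Slc2a1, the basal glucose transporter, stood at 117, 96.5 and 101 CPM in aKO siCEBPb, 126, 132 and 127 in aKO siNS, 126, 120 and 126 in Cont siCEBPb and 210, 215 and 220 in Cont siNS. The interaction was 0.50 ± 0.09 (SE; adjusted p = 0.0012).

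Inflammatory genes showed no single direction. Of 30 complement and coagulation genes, 8 were negative (C1ra, C1s1, C3, C4b, Cfb, Cd55, Serping1 and Plau) and 2 positive, with a median of -0.45. The negative count was 13 by voom. C1s1, a protease of the classical complement pathway, stood at 209, 273 and 270 CPM in aKO siCEBPb, 431, 420 and 446 in aKO siNS, 325, 314 and 314 in Cont siCEBPb and 302, 317 and 301 in Cont siNS; aKO siNS was the high group and the interaction was -0.84 ± 0.11 (SE; adjusted p = 2.98e-05). Serping1, the inhibitor of that protease, stood at 184, 235 and 247 CPM in aKO siCEBPb, 571, 562 and 600 in aKO siNS, 410, 368 and 409 in Cont siCEBPb and 591, 570 and 539 in Cont siNS. The interaction was -0.86 ± 0.12 (SE; adjusted p = 0.000131). Among acute phase and NF-kB genes 4 of 30 were positive and 5 negative. The positive count was 2 with all 24 libraries in 1 fit and without aKO siNS replicate 3, Cont siCEBPb replicate 1, Cont siCEBPb replicate 3 or Cont siNS replicate 1. The negative count was 8 without aKO siCEBPb replicate 2 and 3 without aKO siNS replicate 2, aKO siNS replicate 3 or Cont siCEBPb replicate 3. Il1rn, the interleukin 1 receptor antagonist, stood at 68.1, 59.8 and 65.9 CPM in aKO siCEBPb, 199, 173 and 211 in aKO siNS, 68.4, 63.9 and 67 in Cont siCEBPb and 107, 91 and 97.8 in Cont siNS. The interaction was -1.02 ± 0.11 (SE; adjusted p = 2.78e-06). Lcn2, an acute phase protein, fell in both genotypes, by log2 changes of -5.73 in aKO and -4.12 in Cont cultures, and its interaction was -1.6 ± 0.95 (SE; adjusted p = 0.342). Chemokines counted 3 positive and 5 negative of 19, with 3 negative by voom and without aKO siCEBPb replicate 1, and 9 with no filter and without aKO siCEBPb replicate 3. Cxcl14 stood at 202, 162 and 187 CPM in aKO siCEBPb, 212, 281 and 259 in aKO siNS, 111, 122 and 126 in Cont siCEBPb and 335, 417 and 368 in Cont siNS. The interaction was 1.19 ± 0.16 (SE; adjusted p = 0.000498). Ccl3, a chemokine of macrophages, stood at 0.264, 0.518 and 0.418 CPM in aKO siCEBPb, 4.02, 3.74 and 4.65 in aKO siNS, 2.32, 2.07 and 2.2 in Cont siCEBPb and 6.35, 6.05 and 5.22 in Cont siNS. Its aKO siCEBPb libraries lay little above the 0.195 to 0.23 CPM that 3 counts make, so the size of its interaction is uncertain. The interaction was -1.95 ± 0.34 (SE; adjusted p = 0.000931).

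Leukocyte markers moved with the groups. The list summed to 128, 210 and 261 CPM in aKO siCEBPb, 2030, 2020 and 1917 in aKO siNS, 615, 520 and 604 in Cont siCEBPb and 3481, 3265 and 2499 in Cont siNS cultures. All 19 tested members fell in aKO and 18 in Cont cultures, and 10 of the 30 listed, T and B cell markers mostly, stayed under 10 counts in every library. In the interaction 3 were called (Itgam, Cd68 and Tyrobp), all negative, with a median of -0.99. The count was 12 by voom, 8 by DESeq2's Wald test and 5 with the stricter filter. It was 0 without Cont siCEBPb replicate 1, 1 without aKO siCEBPb replicate 2, aKO siNS replicate 1, aKO siNS replicate 2, aKO siNS replicate 3 or Cont siCEBPb replicate 3 and 5 without aKO siCEBPb replicate 3, Cont siNS replicate 1 or Cont siNS replicate 3. Itgam, the macrophage integrin CD11b, stood at 0.33, 0.37 and 0.209 CPM in aKO siCEBPb, 11.5, 9.78 and 10.3 in aKO siNS, 2.39, 1.67 and 2.14 in Cont siCEBPb and 25.2, 21.8 and 15.4 in Cont siNS. Clec4n, a C-type lectin of myeloid cells whose interaction was also called negative, stood at 0, 0 and 0.0696 CPM in aKO siCEBPb, 6.03, 6.93 and 7.34 in aKO siNS, 0.663, 0.734 and 0.534 in Cont siCEBPb and 12.1, 14 and 10.8 in Cont siNS, so no fold is given. The part of this shift in the complement, chemokine and acute phase results was not tested. Mesothelial markers summed to 7.40 to 9.03 CPM in aKO siCEBPb, 6.79 to 9.76 in aKO siNS, 33.0 to 35.6 in Cont siCEBPb and 28.7 to 29.0 in Cont siNS cultures, a difference of genotype in both siRNAs, and 0 of their 7 tested members were called in the interaction by edgeR with the filter used or by DESeq2. By edgeR 1 was called with no filter and 2 without aKO siCEBPb replicate 2, and voom called 1, as many as had an unadjusted p under 0.05. All 13 epithelial markers were at or near 0.

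**Figure D4:**
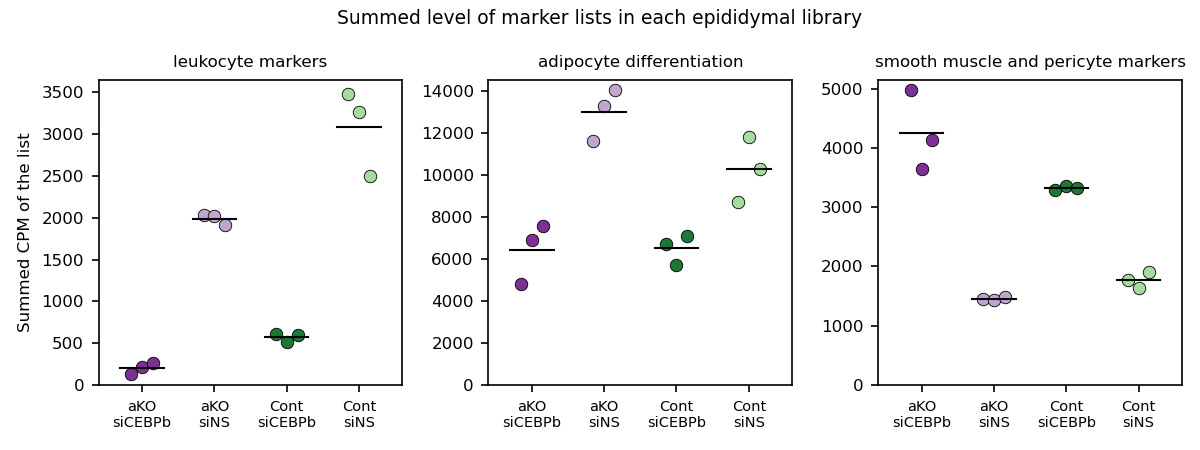
Points give the summed CPM of the listed genes in each library and lines the group mean, from 0, for leukocyte, adipocyte differentiation and smooth muscle lists. Leukocyte genes are lowest in aKO siCEBPb (128 to 261 CPM) and highest in Cont siNS, and contractile genes are highest in aKO siCEBPb. Adipocyte genes have their highest mean in aKO siNS, which overlaps Cont siNS (lowest 11609 CPM in aKO siNS, highest 11789 in Cont siNS).

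Stress and defence genes changed with siCEBPb in both genotypes. Of 30 ATF4 and amino acid stress genes, 24 rose in aKO and 26 in Cont cultures, while 6 were positive and 2 negative in the interaction. With all 24 libraries in 1 fit these counts were 3 and 1, and 4 were negative by voom and without aKO siCEBPb replicate 2. Cth, which makes cysteine from cystathionine, stood at 34, 26.7 and 27.4 CPM in aKO siCEBPb, 6.57, 7.34 and 6.29 in aKO siNS, 31.7, 32.6 and 31 in Cont siCEBPb and 12.8, 13.5 and 13.5 in Cont siNS. The interaction was 0.86 ± 0.15 (SE; adjusted p = 0.000678). Ddit3, the C/EBP relative CHOP, stood at 69.3, 83.2 and 79.9 CPM in aKO siCEBPb, 63.3, 70.7 and 70.3 in aKO siNS, 89.8, 94.1 and 98.6 in Cont siCEBPb and 57.3, 63.6 and 56.1 in Cont siNS; it rose in Cont cultures, and its interaction was -0.49 ± 0.10 (SE; adjusted p = 0.00426). Of 32 interferon response genes, 24 rose in aKO and 23 in Cont cultures, and 0 were called in the interaction by edgeR with the filter used, by DESeq2 or by voom, with 1 positive and 1 negative at an unadjusted p under 0.05. By edgeR 2 were called positive with no filter and 2 without Cont siNS replicate 2. Glutathione and NRF2 genes counted 2 positive and 6 negative of 28. The counts were 4 and 11 with no filter, 3 were negative with all 24 libraries in 1 fit, and 4 were positive by voom and without aKO siCEBPb replicate 2, against 1 without Cont siCEBPb replicate 3. Gstt1, a glutathione transferase, stood at 8.0, 8.14 and 9.68 CPM in aKO siCEBPb, 15.1, 16.7 and 19.5 in aKO siNS, 8.09, 7.41 and 8.74 in Cont siCEBPb and 7.05, 7.15 and 6.66 in Cont siNS, where aKO siNS was the high group. The interaction was -1.21 ± 0.18 (SE; adjusted p = 0.000134). Fgf21, a stress hormone under ATF4, rose in both genotypes by log2 changes of 2.66 in aKO and 1.87 in Cont cultures, and its interaction was 0.78 ± 0.35 (SE; adjusted p = 0.166).

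The same interaction was set beside that of inguinal (iWAT) cultures of the same design, from a fit of all 24 libraries. There 519 of 14785 genes were called (3.51%), 195 positive (1.32%) and 324 negative (2.19%), and 939 (6.27%) without iWAT aKO siNS replicate 2, which had 603585 gene counts. Of the 1447 epididymal calls, 1413 (97.7%) had the same sign in iWAT, against 70.7% of all genes tested in both. The genes called in both numbered 403, which is 27.9% of the epididymal and 77.6% of the inguinal calls, all with the same sign. Without the shallow library they were 618, or 42.7% and 65.8%. The test of the difference between depots called 0 genes by edgeR, with 294 of 14785 (1.99%) at an unadjusted p under 0.05, and 0 by DESeq2 and by voom; 0 were called without the shallow library and 8 with no filter on low counts. Same-numbered eWAT and iWAT libraries of a group had a mean correlation of 0.29 between their deviations from the group means over 11 pairs, above 0.1 in 9 of them. The test of the difference treats the depots as independent. The shares of the same sign, the shared calls and the correlations over genes given below do not allow for this correlation either. A fit with a replicate block across depots, added after the data were seen, called 0 genes, with 368 at an unadjusted p under 0.05. Without the shallow library it called 0, with 759 of 14973 at an unadjusted p under 0.05. The 1.99% of the edgeR test lies below the share expected at that threshold with no difference. Its 0 calls therefore do not show that the interactions were equal.

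The genes given above for the size or the certainty of their interaction were also read in inguinal cultures, where all but Ereg and Clec4n passed the test. Among positive genes the interaction in iWAT was 2.43 ± 0.49 for Ptgs2, 2.01 ± 0.48 for Serpinb2, 2.27 ± 0.37 for Ankrd1, 1.91 ± 0.20 for Sema7a and 1.53 ± 0.18 for Inhba, with adjusted p of 0.00888, 0.0153, 0.000785, 3.38e-06 and 1.64e-05. Those of Htr1b, 2.26 ± 0.50, Il11, 1.64 ± 0.35, and Kcnh2, 1.49 ± 0.34, had adjusted p of 0.0082, 0.00676 and 0.0116. Ereg did not pass in iWAT, with 1.43 ± 0.45 (adjusted p = 0.0773), and nor did Clec4n (adjusted p = 0.289), which has no fold. Among negative genes the interaction in iWAT ran from -3.8 ± 0.68 for Cyp2e1 (adjusted p = 0.00214) to -0.98 ± 0.10 for Vegfd (adjusted p = 1.97e-06). It was -2.68 ± 0.18 for Ndnf (adjusted p = 5.36e-10), -1.25 ± 0.13 for Gas1 (2.35e-06), -2.43 ± 0.31 for Egfl6 (6.22e-05) and -1.98 ± 0.36 for Scg2 (0.00305). Ppargc1a had -2.08 ± 0.53 in iWAT (adjusted p = 0.0244). Most genes picked by the same rule but not given above did not pass in iWAT without the shallow library. There edgeR's adjusted p was 0.543 for Ifi27l2b, 0.0803 for Cck, 0.153 for Serinc2 and 0.315 for Traf1. It was 0.075 for Ppp1r1a and 0.484 for Ptpn22, and Gucy1a1 alone passed, at 0.0354. Across the 1447 genes the 2 interactions had a Pearson r of 0.91 and a Spearman rho of 0.92, a description over genes, which are not independent replicates. The genes were picked by their epididymal interaction, and this choice can by itself raise both values. Their median absolute interaction was 0.55 in eWAT, and their median in the eWAT direction was 0.45 in iWAT.

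**Figure D5:**
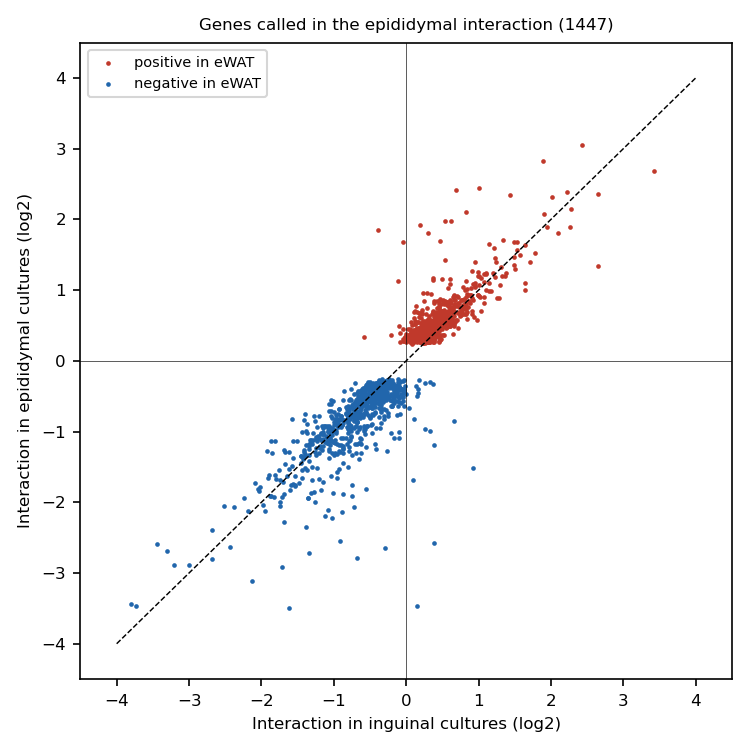
Each point is 1 of the 1447 genes called in the epididymal interaction, with its log2 interaction in epididymal (vertical) and in inguinal cultures (horizontal); the dashed line marks equality. Of these, 1413 share the sign. The median absolute interaction was 0.55 in epididymal cultures, and the median in the same direction was 0.45 in inguinal cultures.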

How the data were processed

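Poly(A) RNA was sequenced in 24 libraries, and the 12 epididymal ones were used here with the inguinal ones beside them. Per the submitters' processing notes, the steps were trimming by cutadapt 2.7, alignment by TopHat2 2.1.1 to GRCm38, and counting by HTSeq. The deposited matrix holds whole-number counts of reads per gene as the authors made them. Counter lines, which name no gene, held 27.5% to 35.0% of listed reads in eWAT libraries and stayed out. The authors' per-sample files were not used. Whether counting used strand is not stated in the sources here, so overlapping genes are uncertain, as are near-identical copies such as C1ra, C1s1 and Gstm genes. GENCODE M21 named 53274 of 53465 identifiers.

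Counts were fitted in R 4.3.3 with edgeR 4.0.16 (filterByExpr with a minimum count of 10, TMM, robust quasi-likelihood, 1 mean per group), with p-values adjusted by Benjamini and Hochberg over 14419 genes at a threshold of 0.05. The fit was tried on simulated data with genes changed in aKO siCEBPb only, which does not measure false calls in these data. Alternatives used DESeq2 1.42.0 size factors and Wald test, limma 3.58.1 voom, 2 other filters, all 24 libraries, a replicate block, and each library left out. No 2 libraries were identical. Members and lists were chosen with earlier results of these data known. Named genes were a fixed set, the 12 largest interactions each way whose mean log2 CPM was 1 or more, the 5 with the smallest p and 4 per list. Other called members of lists were named after their values were seen, and not all genes the rule allows are given. Some list members are not reported here.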

Additional observations from a re-analysis of the deposited data

How the results depend on the processing

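The epididymal interaction kept within 1.5 times its count of 1447 genes under voom (1997), the DESeq2 Wald test (1373), a stricter filter (1442), no filter (1744) and DESeq2 size factors (1417). It fell to 938 with all 24 libraries in 1 fit, of which 914 were among the 1447; the cause was not tested. With 1 library left out it ranged from 796 to 1955. With no filter 711 were positive and 1033 negative, against 755 and 692. The knockdown in aKO cultures called 4942 to 5818 genes with 1 library left out and the knockdown in Cont cultures 3506 to 4788, and both stayed within 1.5 times their count under the other settings. The inguinal interaction, 519 genes, gave 921 with no filter, 1235 by voom and 303 from the 12 inguinal libraries alone, and 291 to 939 with 1 library left out. The difference between depots called 8 genes with no filter and 0 in each of 24 fits without 1 library.

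Replicate numbers were checked for pairing in eWAT. Same-numbered libraries had a mean correlation of deviations of -0.0116 over 18 pairs, from -0.497 to 0.344, so the numbers were not taken as pairs. With the replicate block, 1311 genes were called in the interaction (1239 of them among the 1447), 5598 and 4257 in the aKO and Cont knockdowns, 444 in the inguinal interaction and 0 in the difference between depots. Senp2 (adjusted p = 0.0463), Slc2a4 (0.0256) and Lcn2 (0.0459) passed under the block and not in the reported fit. Cd68 (0.075) and Tyrobp (0.0709) lost the call under it, which left 1 leukocyte marker called. The block across depots, chosen after seeing the data, called 0 genes.

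Of 109 called genes checked one by one, 74 kept direction and call under the 19 alternatives where they were tested, 35 lost the call at least once and 0 turned. Of 45 uncalled genes, 24 passed at least once. Acta2, Tagln and Igf1 lost the call with all 24 libraries in 1 fit and in no other setting. Depth differed little among eWAT libraries.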
